A study of Danio rerio with 18 samples.

Results

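The peaks described here are the regions of N6-methyladenosine (m6A) enrichment on the long arm of zebrafish chromosome 4, taken as all peaks that start at or beyond 28000000 on chromosome 4 in the Zv9 assembly. The first m6A peak list labelled control held 270 such peaks of 32131 (0.840%) and the second held 192 of 23819 (0.806%), 462 of 55950 in all. The choice used position alone and no measured value. The RNA came from trunks of 28-hpf embryos (hours post-fertilization). The groups used, each of 2 samples, were m6A immunoprecipitates (IP) of mettl3 morphant and of control embryos, whole RNA (input) of mettl3 morphant and of control embryos, miCLIP of control embryos, and RIP of embryos that carried injected mRNA for Flag-tagged Ythdf2. The control embryos are described only as normal, no strain or dose of morpholino is given, and an injected mRNA reaches many cell types. Nothing in the labels says that the replicates came from separate clutches or animals, and the trunk is a mixture of tissues in which fewer cells of a type and less RNA per cell cannot be told apart.

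m6A is a methyl mark on adenosines of messenger RNA. Mettl3 is the enzyme that writes it, and Ythdf2 reads it, binding marked transcripts and promoting their decay. In MeRIP-seq, fragments of RNA are pulled down with an m6A antibody and sequenced beside the input, and stretches with more IP than input reads are called as peaks. miCLIP crosslinks the antibody to RNA and reads single marked nucleotides, and RIP-seq recovers RNA bound to a protein. The long arm of zebrafish chromosome 4 is known for being rich in heterochromatin and in repeated genes, among them large families of zinc finger and NLR (NACHT domain) genes and clusters of genes for small RNAs, and poor in other protein-coding genes. In a RefSeq annotation of a later assembly (GRCz12tu), chromosome 4 as a whole carried 97.2% of all entries for ribosomal RNA and 76.0% of those for small nuclear RNA. It carried 67.2% of those for transfer RNA and 6.77% of protein-coding genes (1830 of 27039). The shares cover both arms and were not set against chromosome length, so they do not show how gene-poor the long arm is. Reads from near-identical copies can be placed on the wrong copy or be discarded, and the sources used here do not say how the authors treated them. The library counts listed 0 reads as not uniquely placed, and the part of mapping in the values below was not tested.

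Counts on genes came to between 32.8 M and 78.3 M in the 8 MeRIP libraries. METTL3, the targeted gene, stood at 15.7 and 48.2 CPM (counts scaled to library depth) in the inputs labelled mettl3 morphant, replicates 1 and 2, against 35.8 and 19.6 CPM in those labelled control. The IP libraries gave 17.7 and 55.2 CPM under the morphant label and 43.5 and 22.3 CPM under the control label. Replicate 1 thus had less of the transcript under the morphant label and replicate 2 had more, so that libraries and lists are named by their labels throughout. The effect of the morpholino on the level of this transcript was not tested, so these levels alone do not settle the labels. Marker genes of skeletal muscle, nerve, blood, epidermis and endothelium were present in all 4 inputs (2 of 5, 3 of 4, 3 of 4, 3 of 3 and 1 of 4 markers could be matched to a count), with summed levels between 22.4 CPM for the endothelial gene and 32500 CPM for the epidermal genes, while none of the 3 notochord markers could be matched. The second peak list of each label is shorter than the first, and its reads are 101 bp long, those of the first 151 bp. Read length and replicate number cannot be told apart in these lists.

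m6A peaks were sparse on the long arm. The lists labelled mettl3 morphant gave 5.51 and 2.17 peaks per Mb over its 34.1 Mb, against 22.6 and 12.8 on the short arm (the first 28 Mb of chromosome 4) and 20.1 and 10.98 on the 24 other chromosomes. Control list 1 gave 7.92 per Mb, against 28.5 and 23.6 per Mb. Control list 2 gave 5.63, against 20.0 and 17.5 per Mb. When the genome was divided into 26 units, the 24 other chromosomes and the 2 arms of chromosome 4, the long arm was the sparsest in both control lists, and the next unit held 19.6 per Mb in list 1 (chromosome 14) and 15.3 in list 2 (chromosome 18). In both lists the gap between the long arm and the next unit was larger than the range of all the remaining units. Peaks of one library share that library and are not replicates, so that the arms are compared here by list and by their rank among the units, with no test.

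With fewer peaks per Mb, the peaks lay farther apart and covered less of the sequence. The median distance between neighbouring peaks was 41.4 kb on the long arm in control list 1 and 51.7 kb in list 2, against 8.26 and 13 kb on the other chromosomes. Of the long arm peaks, 95 of 270 in list 1 (35.2%) and 71 of 192 in list 2 (37.0%) had a neighbour within 5 kb, against 61.2% and 52.3% on the other chromosomes. Peaks covered 2409 and 1568 bp per Mb of the long arm, against 8122 and 6070 bp per Mb elsewhere. A neighbour within 5 kb was thus less common on the long arm in both lists. Lower density by itself gives fewer neighbours and wider gaps. Whether the peaks were more or less clustered than their density implies was not tested.

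The morphant lists placed a smaller share of their peaks on the long arm. This share was 0.689% (188 of 27289 peaks) and 0.497% (74 of 14878) in the lists labelled mettl3 morphant, against 0.840% and 0.806% in the lists labelled control. Both morphant lists lay below both control lists, with means of 0.593% ± 0.135 and 0.823% ± 0.0242 (SD, n = 2 each) and a difference of −0.23 percentage points. An exact two-sided permutation test gave p = 0.333, which is the smallest value that 2 against 2 lists allow. The order rests on the labels. METTL3 RNA was higher under the morphant label in replicate 2, and whether the morpholino lowers that RNA was not tested. If the labels of that replicate were exchanged, the lists would stand at 0.689% and 0.806% for morphant against 0.840% and 0.497% for control, and the order would be lost. The short arm did not have this order under the labels as given, with 2.32% and 2.41% in the morphant lists against 2.48% and 2.35% in the control lists.

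**Figure D1:**
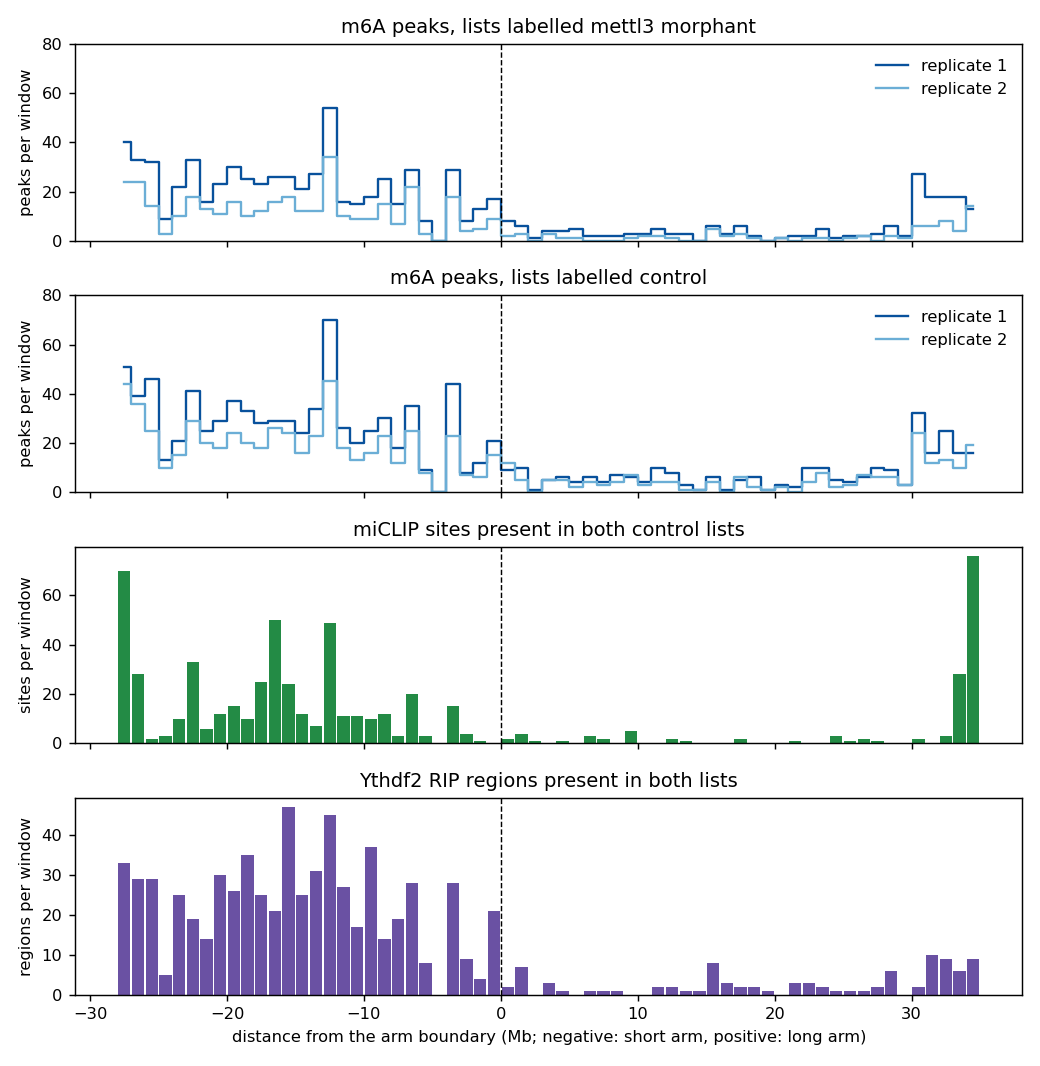
Peaks, miCLIP sites and Ythdf2 regions in windows of 1 Mb along chromosome 4, plotted against the distance from the arm boundary in Mb, with the short arm on the left of the dashed line and the long arm on the right. Lines in the upper panels are the replicate lists of each label, and bars in the lower panels are sites and regions found in both lists of their assay; the last window holds less than 0.1 Mb. Peak numbers are low over the middle of the long arm and higher over its last 7.09 Mb, where most shared miCLIP sites of the arm also lie.

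Peaks were not spread evenly along the arm. The middle stretch from 30 to 50 Mb held 4.45 and 2.90 peaks per Mb in control lists 1 and 2, while the distal stretch from 55 Mb to the end at 62.1 Mb held 17.9 and 13.1 per Mb. The distal 7.09 Mb held 127 of the 270 peaks of list 1 and 93 of the 192 of list 2. Taken whole, the distal stretch was still sparser than any other chromosome (at least 19.6 and 15.3 per Mb), and the middle of the arm was sparser again. Parts of the distal stretch were dense, with 32 and 24 control peaks in the window at 58 Mb. The last 93.9 kb alone held 16 and 19. Each of the 35 windows of 1 Mb held at least 1 peak of control list 1, with a median of 6 and a highest count of 32. The short arm had a median of 28.5 per window.

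The windows with the most peaks common to both control lists were those at 58, 62 and 60 Mb. The window at 58 Mb held 27 and 6 peaks in the morphant lists and 32 and 24 in the control lists, of which 17 were shared by both control lists and 5 of these appeared in both morphant lists. The last window, which starts at 62 Mb and holds only 93.9 kb, had 13 and 14 peaks in the morphant lists and 16 and 19 in the control lists, with 14 shared by the control lists and 9 of these in both morphant lists. The window at 60 Mb had 18 and 8 peaks in the morphant lists and 25 and 13 in the control lists, with 13 shared and 7 in both morphant lists. The short stretch at the end of the chromosome was the one of the 3 where the second morphant list held as many peaks as the first.

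The boundary is a position set by hand, and peaks go on at both sides of it. The 3 peaks of control list 1 just inside it lay at chr4:28128084-28128538, chr4:28259604-28260341 and chr4:28270735-28270935 (Zv9, positions as the authors list them), with folds of 4.44, 3.44 and 6.62. The 3 just outside lay at chr4:27941778-27942341, chr4:27933603-27933803 and chr4:27834260-27834523, with folds of 7.24, 4.21 and 5.19. All but the first of the 6 also appeared in control list 2.

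Although sparse, the long arm peaks had higher folds than peaks elsewhere. The fold of a peak is the authors' own enrichment value and is used here only to describe peaks within a list. Its median on the long arm was 4.81 and 7.40 in morphant lists 1 and 2 and 5.72 and 6.01 in control lists 1 and 2, against 4.34, 5.97, 4.97 and 5.24 in the same lists on the other chromosomes. The short arm gave 4.37, 6.10, 5.12 and 5.36. In both control lists the long arm median was the highest of the 26 units, with 5.13 (chromosome 1) and 5.46 (chromosome 5) next. The spread within the arm was wide, with an interquartile range from 4.49 to 7.47 and extremes of 1.28 and 88.1 in control list 1, and the interquartile ranges of the 3 parts overlapped in each list.

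The same peaks were shorter. Median lengths were 234 and 243.5 bp in the morphant lists and 241 and 236 bp in the control lists, against 266, 270, 270 and 275 bp on the other chromosomes. Peaks under 300 bp made up 71.5% and 75% of long arm peaks in control lists 1 and 2, against 58.1% and 56.1% elsewhere. The long arm had the lowest median length of the 26 units in both control lists, where the next were 263 bp (chromosome 21) and 261 bp (chromosome 9). A further property of the list values moved with the arm. A fold identical to that of another peak in the same list was held by 63.8% and 47.3% of long arm peaks in the morphant lists, against 43.1% and 37.6% on the other chromosomes. The control lists gave 76.7% and 66.7% on the long arm, against 45.9% and 42.3%. The lists hold no read number per peak, so that the depth behind a fold is unknown, and the part of low read numbers in the higher folds was not tested.

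**Figure D2:**
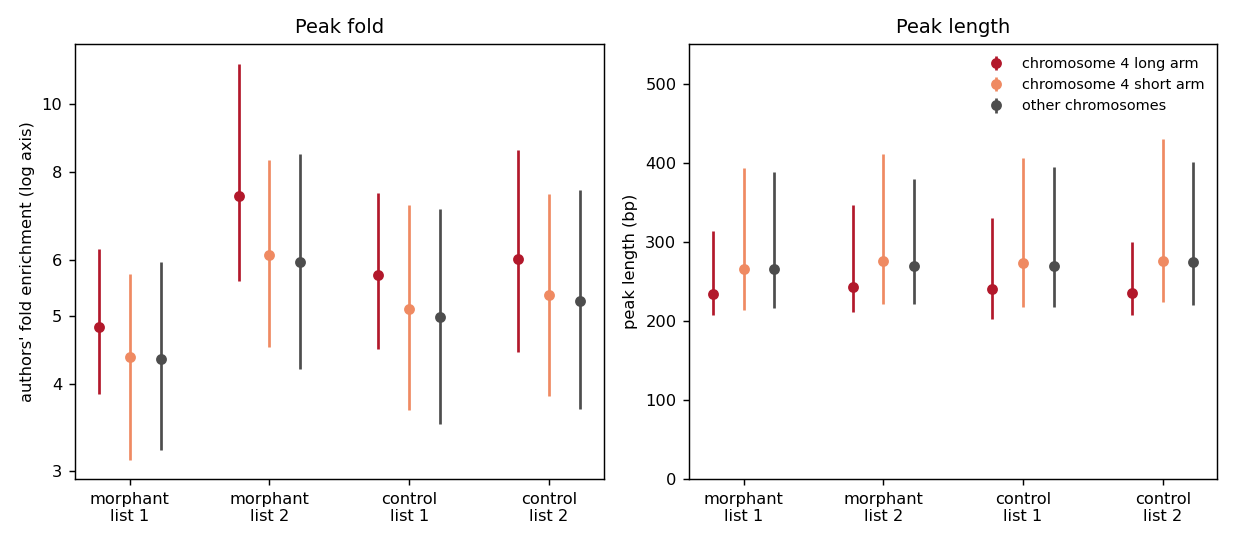
Fold enrichment as the authors list it (left, log axis) and peak length in bp (right) for the 2 morphant and the 2 control lists. Points are medians and lines are interquartile ranges of the peaks on the long arm, the short arm and the other chromosomes; in each list the long arm median is the highest for fold and the lowest for length.

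Long arm peaks were found less often in both control lists. Of the 270 long arm peaks of control list 1, 135 overlapped a peak of control list 2 by at least 1 bp, or 50% (95% exact interval 43.9% to 56.1%), where 64.2% of all peaks of the list did so. The share was 61.9% on the short arm and 64.4% on the other chromosomes, and the difference from the other chromosomes was −14.4 points (95% interval −20.3 to −8.44). Of the 192 long arm peaks of list 2, 140 overlapped one of list 1 (72.9%), where 87.6% of all peaks did so. The intervals here and below cover counting error only, since neighbouring peaks can share a transcript. The 135 peaks of list 1 that reappeared had a median fold of 6.52 and length of 268 bp, and the 135 that did not had 5.12 and 212 bp. In list 2, the 140 that reappeared had 5.98 and 247 bp and the remaining 52 had 6.25 and 216.5 bp. Length, but not fold, was thus higher in the repeated peaks of both lists.

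The 135 shared peaks had folds from 2.31 to 67.4 in control list 1, with 27 of them (20.0%) at 10 or more, against 13.98% of shared peaks on the other chromosomes. The highest, at chr4:40893796-40894018, had folds of 4.27 and 31.1 in morphant lists 1 and 2 and of 67.4 and 34.1 in control lists 1 and 2, held 1 miCLIP site found in both lists, and lay on a Ythdf2 region. The next, at chr4:38911508-38911791, had folds of 22.7 and 17.4 in the morphant lists and 48.3 and 27.0 in the control lists, with neither a site nor a region. At chr4:62092463-62092757, close to the end of the chromosome, the folds were 28.2 in morphant list 2 and 37.3 and 28.5 in the control lists, with no peak in morphant list 1. The fold of the first peak thus differed several times over between the morphant lists. Among the peaks just named, the other pairs of folds differed less where both lists of a label held a peak. The ranking used control list 1 alone. A peak of lower fold there, at chr4:54983324-54983549, had 21.7 in morphant list 2 and 9.48 and 114.6 in control lists 1 and 2.

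Other peaks among the 10 of highest fold differed between lists of one label to unlike degrees. The peak at chr4:50138546-50138796 had 25.7 in morphant list 2 and 32.6 and 54.2 in the control lists, and was not listed in morphant list 1. That at chr4:60246065-60246306 had 10.1 and 26.8 in the morphant lists and 26.6 and 25.99 in the control lists. That at chr4:39998298-39998962, the longest of the 10 at 664 bp, had 4.63 and 7.61 in the morphant lists and 32.8 and 8.41 in the control lists. The remaining 4 had folds of 20.9 to 24.4 in control list 1. Of the 10 peaks, 7 overlapped a peak of morphant list 1, 9 one of morphant list 2 and 6 both. Over all shared control peaks these shares were 81.5%, 63.9% and 56.4%. Of the 10, 4 lay on a shared Ythdf2 region and 1 held a shared miCLIP site, where 46.7% and 24.8% of all shared control peaks did. With 10 peaks, these counts are too small to set them apart. A site in 1 of 10 equals the share over the arm. By quartile of fold, 6 of 46 long arm peaks in the highest held a shared site (13.04%). The third quartile gave 2 of 44 (4.55%), the second 2 of 34 (5.88%) and the lowest 3 of 11 (27.3%), with wide intervals. On the other chromosomes the shares were 22.8%, 24.96%, 26.2% and 27.2% in the same order. In the lowest quartile the long arm was thus not below them by value, but its interval (6.02% to 60.97%) also allows a shortfall.

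miCLIP sites were rarer in long arm peaks. Of the 135 shared control peaks, 13 (9.63%, 5.23% to 15.9%) held a site found at the same position and strand in both miCLIP lists, where 24.8% of all shared control peaks did. The share was 24.1% on the short arm and 25.3% on the other chromosomes, a difference of −15.7 points (−19.6 to −9.51) from the other chromosomes. With sites of either miCLIP list counted, 35 of the 135 peaks (25.9%) held a site, against 54.8% and 53.7%, with 52.7% over all. The long arm had the lowest share of the 26 units, with chromosome 22 next at 22.1%. The 13 peaks held 61 shared sites, 4.69 per peak against 2.29 in the peaks with a site on the other chromosomes. That mean rested on 5 peaks at the chromosome end, described below, which held 52 of the 61 sites. The other 8 held 9 sites, and 7 of the 13 held 1 site each.

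The sites themselves were few and clustered. The long arm held 271 and 268 sites in miCLIP lists 1 and 2 and 140 in both, or 4.11 shared sites per Mb, against 15.9 on the short arm and 16.1 on the other chromosomes. They agreed between the miCLIP lists at least as often as sites elsewhere, at 51.7% and 52.2% of each list, against 43.3% and 46.6% on the other chromosomes. Of the 140, 54 (38.6%) lay in a peak of both control m6A lists, against 53.8% on the short arm and 51.5% on the other chromosomes. Over the arm as a whole, the low site number was therefore not accompanied by lower agreement between miCLIP lists. That agreement rested largely on 5 dense groups of sites, described below. They held 99 of the 140 shared sites, with 41 outside them. The groups were formed from shared sites, so that high agreement within them follows in part from that choice. Outside them, agreement was lower by value than over the whole arm. It was not compared with sites of other chromosomes outside such groups. The last 93.9 kb of the chromosome held 76 of the 140 sites (54.3%), 39 on the plus and 37 on the minus strand, and another 28 (20.0%), all on the minus strand, lay between 61.2 and 61.3 Mb. Only 25 of the 341 bins of 100 kb held any shared site, a count made for the long arm alone. Close spacing of sites was common elsewhere too. Of the gaps between neighbouring shared sites of one strand, 50.7% were of 100 nt or less on the long arm. The short arm had 34.5% and the other chromosomes 38.6%. Without the last bin, density fell further, to a log2 ratio to the other chromosomes of −3.10, against −1.98 with it.

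With sites of one strand joined when no more than 1000 bp apart, 5 groups of at least 5 sites held 99 of the 140 sites (70.7%). Such groups were formed on the long arm alone, so that their share elsewhere is not known. The first group ran from 61294799 to 61299640 on the minus strand and held 28 shared sites over 4842 bp. It met 1 and 2 peaks in the morphant lists and 1 and 0 in the control lists, with 1 of its 28 sites inside the single control peak, and 2 and 3 Ythdf2 regions in the RIP lists. The largest, from 62056083 to 62058336 on the plus strand, held 34 sites, of which 26 and 21 lay in peaks of control lists 1 and 2. The 3 others, all on the minus strand, ran from 62059558 to 62060838 with 21 sites, from 62063328 to 62063634 with 5 and from 62086084 to 62087099 with 11. The group near 61.3 Mb thus stood outside control m6A peaks almost entirely, while the 4 near the chromosome end lay largely within them.

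The 5 shared peaks with most sites all belonged to the end of the chromosome. The peak at chr4:62056052-62056888 held 17 shared sites, all on the plus strand, and had folds of 6.38 and 4.61 in the morphant lists and 6.18 and 5.17 in the control lists. The peak at chr4:62057104-62057677, also on the plus strand with 9 sites, had 7.22 in morphant list 1, none in list 2, and 6.14 and 5.76 in the control lists. The peak at chr4:62059985-62060751 held 13 sites on the minus strand, with folds of 4.38 and 5.92 in the morphant lists and 3.70 and 4.38 in the control lists. That at chr4:62085838-62086925, 1087 bp long, held 9 on the minus strand, with 7.71 and 11.6 against 9.13 and 12.7. That at chr4:62063395-62063662 held 4 on the minus strand, with 2.14 and 8.97 against 3.73 and 5.95. All 5 were present in morphant list 1 and 4 of them in morphant list 2, and their folds in control list 1 were modest beside the strongest peaks of the arm. No annotation of Zv9 was used here, so that the genes at these positions are not named.

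Ythdf2 regions were rarer still per Mb. The arm held 236 and 212 regions in the 2 RIP lists, of which 93 of list 1 overlapped list 2, or 2.73 shared regions per Mb, against 23.3 on the short arm and 21.8 on the other chromosomes. Agreement between RIP lists was lower, at 39.4% and 44.8% of each list, against 52.8% and 68.0% on the other chromosomes. A shared region lay on 34 of the 135 shared control peaks (25.2%, 18.1% to 33.4%), where 46.7% of all shared control peaks carried one. The short arm had 45.6% and the other chromosomes 47.0%, a difference of −21.8 points (−28.4 to −13.8) from the other chromosomes, and chromosome 1 was the next lowest of the 26 units at 39.4%. With regions of either RIP list the shares were 51.1%, 72.0% and 75.5%, with 75.2% over all.

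Seen from the region, the arm was not set apart in this way. Of the 93 shared regions on the long arm, 32 (34.4%) met a peak of both control m6A lists, against 34.6% on the short arm and 32.0% on the other chromosomes, and 57.0% met a peak of either, against 46.2% and 45.01%. A shared miCLIP site lay in 13.98% of the long arm regions, against 15.5% and 17.3%. A region of the long arm therefore met a peak of both lists about as often as elsewhere, and a peak of either list more often by value. Taken over the 135 peaks, 7 (5.19%) had both a shared site and a shared region, where 16.7% of all shared control peaks did, and 40 (29.6%) had at least one of them, where 54.8% did. The remaining 95 peaks had neither.

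**Figure D3:**
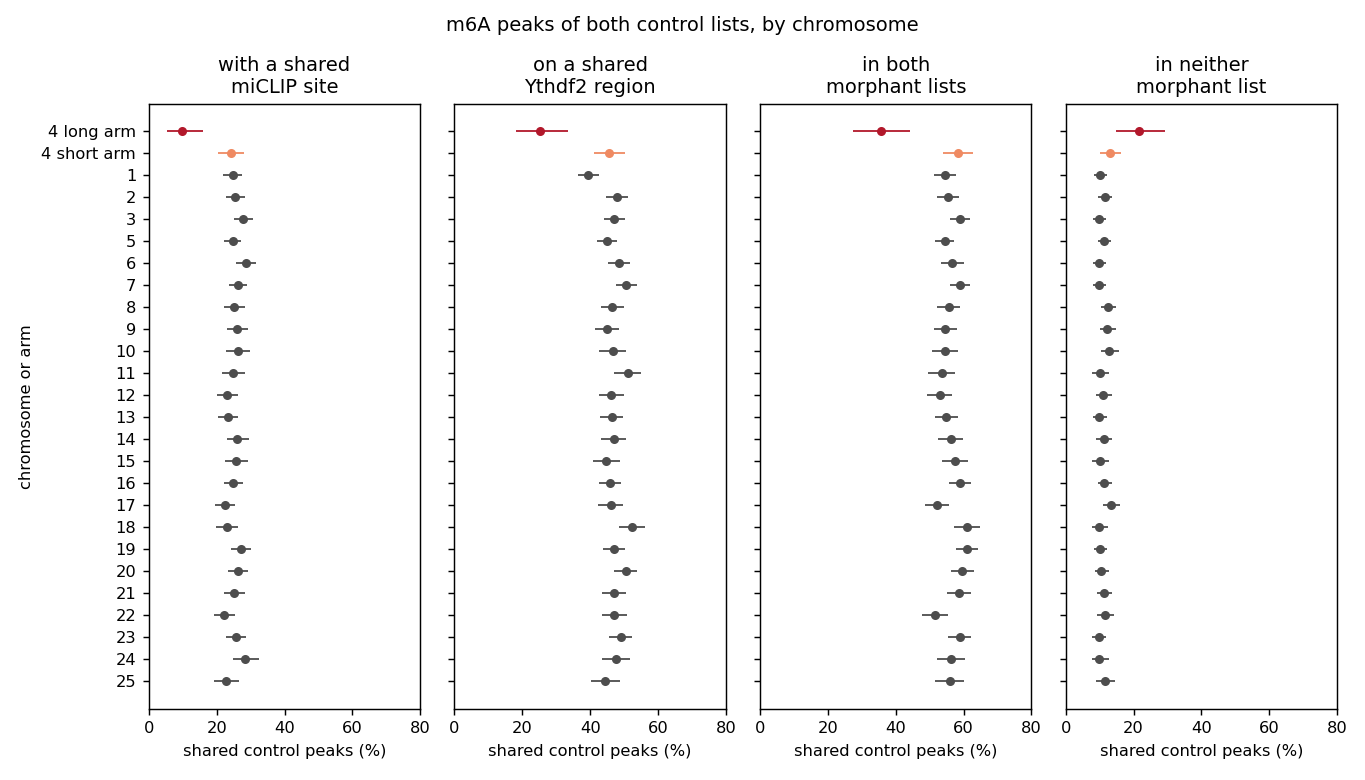
Shares of shared control peaks, in percent, for the long arm, the short arm and each other chromosome: with a shared miCLIP site, on a shared Ythdf2 region, in both morphant lists and in neither. Points are shares and lines are 95% exact intervals; the long arm is lowest in the first 3 panels (9.63%, 25.2% and 35.6%) and highest in the last (21.5%).

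Long arm peaks were found again less often in the morphant lists, with the labels taken as given. Both lists labelled mettl3 morphant held 48 of the 135 shared control peaks (35.6%, 27.5% to 44.2%), where they held 56.4% of all shared control peaks. The short arm had 58.4% and the other chromosomes 56.5%, a difference of −21.0 points (−28.6 to −12.6) from the other chromosomes. In neither morphant list were 29 of the 135 (21.5%, 14.9% to 29.4%), where 11% of all shared control peaks were, against 12.98% on the short arm and 10.9% on the other chromosomes, a difference of 10.6 points (4.51 to 18.3). The long arm had the lowest of the 26 values for recovery, before chromosome 22 at 51.6%, and the highest for absence, before chromosome 17 at 13.4%.

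By single list, morphant list 1 held 98 of the 135 peaks (72.6%), against 78.7% on the short arm and 81.7% on the other chromosomes, with 81.5% over all. Morphant list 2 held 56 (41.5%), against 66.7% and 64.0%, with 63.9% over all. The shortfall from the other chromosomes was thus larger in the second, shorter list, at −22.5 points against −9.07. The IP library of morphant list 2 had 78.3 M counts on genes. Morphant IP 1 had 52.7 M, and control IPs 1 and 2 had 38.0 M and 38.8 M. The lists hold no read number per peak, and the part of depth in the shortfall was not tested. When each of the 4 lists was reduced to its peaks of highest fold, as many as the shortest list holds, 76 long arm peaks were shared by the control lists. Recovery in both morphant lists was then 42.1% on the long arm, against 50.7% on the other chromosomes, a difference of −8.54 points whose interval (−19.1 to 2.73) includes 0. The difference in peaks found in neither list was then 6.87 points (−0.825 to 17.3). The differences in miCLIP sites and Ythdf2 regions do not use the morphant lists.

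The same order was seen when all control peaks were counted, shared or not. Of the 270 long arm peaks of control list 1, 145 (53.7%) overlapped morphant list 1, where 70.9% of all peaks of the list did, and 62 (23.0%) overlapped morphant list 2, where 42.4% did. Of the 192 of control list 2, 111 (57.8%) overlapped morphant list 1, where 74.6% did, and 64 (33.3%) overlapped morphant list 2, where 58.1% did. In each of the 4 pairs of lists the long arm share was lower than that over all peaks, by 16.8 to 24.8 points. The long arm share was also lower between the control lists themselves. It was 50% against 64.2% over all for peaks of list 1, and 72.9% against 87.6% for those of list 2. A lower long arm share was thus not confined to pairs that cross the labels.

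Recovery was also set out by fold, with the shared control peaks of the whole genome divided into quartiles of fold in control list 1. In the highest quartile, with folds of 7.76 or more, 27 of 46 long arm peaks (58.7%) were found in both morphant lists, against 58.6% on the short arm and 61.1% on the other chromosomes. In the third quartile 9 of 44 (20.5%) were, against 60.6% and 57.6%, and in the second 9 of 34 (26.5%), against 63.9% and 57.3%. In the lowest quartile the share was 3 of 11 (27.3%), against 49.6% and 50.2%. In the highest quartile the long arm share was thus near those elsewhere, with an interval (43.2% to 73.0%) that also allows a shortfall. By value, the larger differences lay in the quartiles below it. With only peaks above the list median fold kept, 44.3% of 70 long arm peaks were recovered, against 61.5% on the other chromosomes. That difference was −17.25 points (−28.3 to −5.57). This dependence on fold was not tested against that of the other chromosomes.

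Within classes of length and of the other marks, the long arm share was lower as well. Of long arm peaks of 300 bp or more, 28 of 55 (50.9%) were recovered, against 72.6% on the other chromosomes, and of shorter peaks 20 of 80 (25%), against 37.5%. Of peaks with a shared miCLIP site, 9 of 13 (69.2%, 38.6% to 90.9%) were recovered, against 81.3%, an interval that includes the value elsewhere. Of the 122 without a site, 39 (32.0%) were, against 48.1%. Of peaks on a shared Ythdf2 region, 17 of 34 (50%) were recovered, against 71.1%, and of the 101 others 31 (30.7%), against 43.6%. The recovered long arm peaks had a median fold of 9.03 and a length of 335 bp, and the 29 absent from both morphant lists 5.99 and 236 bp. On the other chromosomes, recovered peaks had 5.47 and 379 bp and absent peaks 5.27 and 232 bp. The short arm gave 5.59 and 409.5 bp against 4.93 and 224.5 bp. The difference in length was thus not particular to the long arm, while that in fold was larger there by value.

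**Figure D4:**
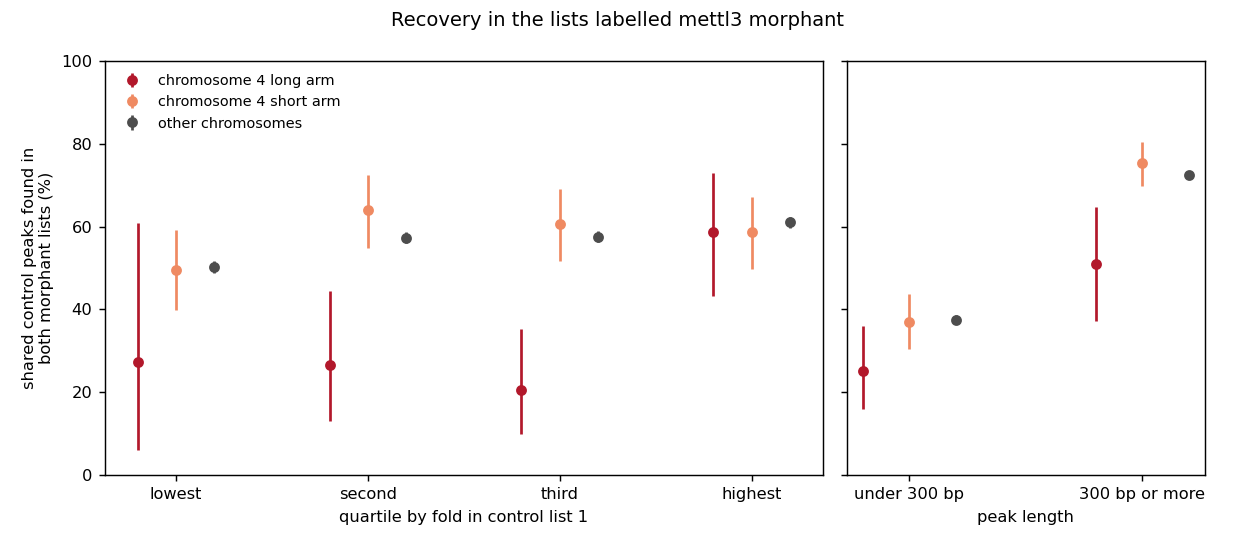
Percent of shared control peaks found in both lists labelled mettl3 morphant, by quartile of fold in control list 1 (left) and by peak length (right), for the long arm, the short arm and the other chromosomes. Points are shares and lines 95% exact intervals; in the highest quartile the 3 parts lie at 58.7%, 58.6% and 61.1%, and in the third quartile the long arm lies at 20.5% against 60.6% and 57.6%.

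None of the 29 peaks absent from both morphant lists held a shared miCLIP site (exact interval 0% to 11.9%), against 5.29% of absent peaks on the other chromosomes, and 5 (17.2%) lay on a shared Ythdf2 region, against 22.8%. The shares elsewhere lie within both intervals. The one of highest fold, at chr4:48046766-48047030, had 15.5 and 10.0 in the control lists. It was followed by chr4:29632916-29633137 with 8.88 and 5.31, chr4:51833050-51833310 with 8.42 and 9.73, chr4:54061626-54061975 with 7.82 and 10.9 and chr4:61479419-61479647 with 7.37 and 7.43. Of these 5, the peak at 54061626 lay on a Ythdf2 region. They were spread along the arm and were not gathered in one window.

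In the other direction, some long arm peaks were listed only under the morphant label. Of the 188 and 74 long arm peaks of morphant lists 1 and 2, 34 (18.1%) and 5 (6.76%) overlapped neither control list, against 12.4% and 2.32% of the peaks on the other chromosomes. When peaks of all 4 lists were joined into regions, the long arm held 356 regions. Of these, 48 (13.5%) were supported by all 4 lists, against 31.4% on the short arm and 30.2% on the other chromosomes. Regions found in 1 list alone were 156 (43.8%), against 27.0% and 27.9%. Regions found in morphant lists alone were 36 (10.1%), against 7.57% and 9.59%, and regions found in control lists alone were 152 (42.7%), against 26.5% and 24.3%. Of the long arm regions, 3 (0.843%) were found in both morphant lists and no control list, against 0.110% on the short arm and 0.186% on the other chromosomes. The interval for these 3 (0.174% to 2.44%) includes the value on the other chromosomes. It does not include that of the short arm, which rested on 1 region. Another 29 (8.15%) were found in both control lists and no morphant list, against 6.92% and 5.75%, and the interval for the long arm (5.52% to 11.5%) includes both. The lower agreement of long arm peaks therefore held between the control replicates as well as between labels.

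Gene counts gave a separate and small view of zinc finger transcripts of chromosome 4. Zinc finger proteins of this kind bind DNA, and the copies on this chromosome are alike in sequence, so that counts of single copies are uncertain. The later RefSeq annotation placed 33 genes with zinc finger symbols on chromosome 4, of which 9 had a count, and none of NLR symbol could be matched. That annotation gives no Zv9 position, so the arm of each gene is unknown here. In edgeR's quasi-likelihood test with Benjamini-Hochberg adjustment over 23163 genes, 1 of the 9 was higher in m6A IP than in input under the morphant label, where 13.1% of all genes were higher, and none was lower, where 13.2% of all genes were lower. Under the control label 2 were higher, where 13.7% of all genes were, and none lower (14.6%). With the replicate number as a block, with DESeq2 or without a filter on low counts, 2 were higher under the morphant label. Under the control label, DESeq2 and the fit without a filter each gave 3. With 9 genes, these counts are too small to set the list apart. The median log2 ratio of IP to input was 0.53 under the morphant label and 0.82 under the control label, beside −0.02 and −0.03 over all genes.

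The 2 genes were znf977 and znf1113. Counts of znf977 reached 12.1 and 15.98 CPM in the IP against 4.63 and 3.86 CPM in the input under the morphant label, and 15.1 and 17.6 CPM against 3.77 and 3.24 CPM under the control label. All 4 IP libraries lay above all 4 inputs. The log2 ratio was 1.64 (SE 0.232, edgeR adjusted p = 0.00362) under the morphant label and 2.10 (SE 0.234, edgeR adjusted p = 0.00219) under the control label. Counts of znf1113 reached 3.80 and 5.28 CPM in the IP against 2.47 and 1.06 CPM in the input under the morphant label, and 3.79 and 5.72 CPM against 0.909 and 1.04 CPM under the control label. Here too the IP libraries lay above the inputs. The log2 ratio was 1.26 (SE 0.419, edgeR adjusted p = 0.0568, and 0.0416 with the replicate block) under the morphant label and 2.16 (SE 0.430, edgeR adjusted p = 0.00874) under the control label, and the control call was lost without either control input (edgeR adjusted p = 0.0532 and 0.0552). Under the morphant label the ratio was 2.17 without input 1 and 0.67 without input 2, with edgeR adjusted p = 0.0123 and 0.152.

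The other 7 did not pass the test under either label, although znf800b passed under the control label without a filter on low counts (edgeR adjusted p = 0.0346) and with DESeq2 (adjusted p = 0.0167). Their log2 ratios under the control label ran from −0.46 for znf1136 to 1.07 for znf569l, with znf1065 at 0.84, znf800b at 0.82, znf989 at 0.56, znf1059 at 0.44 and znf1068 at 0.11. Of all 9, 8 were above 0 under each label, znf1136 being the exception at −0.59 and −0.46. The gene znf569l rested on 25 and 38 reads in the IP and 13 and 8 in the input under the morphant label. The change of the ratio between labels, morphant minus control, had a median of −0.29 over the 9 genes beside 0.01 over all, and none of the 9 changes passed (0 at an unadjusted p below 0.05, and 84 of 23163 over all genes). No gene of the whole table passed edgeR's adjusted threshold in either direction (0% of 23163), and DESeq2 called 1. The 84 genes at an unadjusted p below 0.05 are far fewer than that threshold lets through without any change. The test was thus strict in these data, and the lack of calls does not show that the ratios were unchanged.

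**Figure D5:**
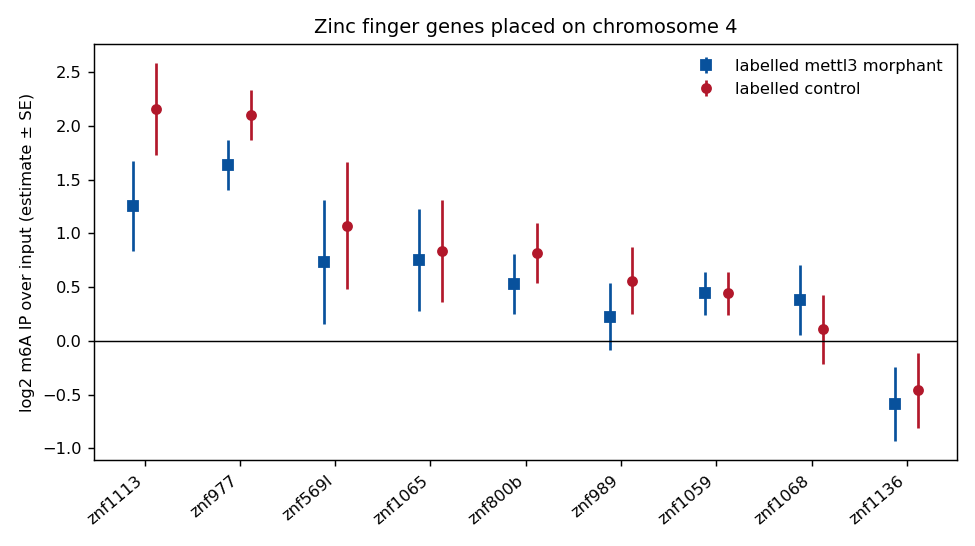
Log2 ratio of m6A IP to input for the 9 zinc finger genes placed on chromosome 4, under the mettl3 morphant label (squares) and the control label (circles). Points are edgeR estimates from 2 libraries per group and lines ± 1 SE. Under each label 8 of 9 genes lie above 0, and only znf977 passed the main test under both. With the replicate number as a block, with DESeq2 or without a filter on low counts, znf1113 did so as well.

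Other lists give the setting of these values. Of 110 tested zinc finger genes on other chromosomes, 35 were higher (31.8%) and 3 lower (2.73%) in IP under the morphant label. Over all genes these shares were 13.1% and 13.2%. Under the control label 36 were higher (32.7%) and 4 lower (3.64%), where 13.7% and 14.6% of all genes were. The medians were 0.40 under the morphant label and 0.37 under the control label. Of 451 tested genes placed anywhere on chromosome 4, 53 were higher and 68 lower under the morphant label (11.8% and 15.1%), and 61 and 73 under the control label (13.5% and 16.2%), near the shares over all genes. Zinc finger transcripts on other chromosomes were thus above their inputs more often than below, and chromosome 4 genes as a whole were not set apart.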

How the data were processed

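The authors deposited m6A peak lists with a fold enrichment ratio per peak, 1 list per replicate, and Ythdf2 region lists, both from MACS2 according to the submitters' processing notes. The authors also deposited miCLIP site positions (BWA 0.7.10) and raw counts per gene (TopHat2 2.0.9 and HTSeq), per the submitters' processing notes. Contig names are those of Zv9, per the file headers and names; the sources used here do not say whether positions count from 0 or 1, nor give peak thresholds or the RIP control. In the first morphant list, 4842 lines without a fold were left out. Together with its 27289 peaks they match the 32131 lines of control list 1. Whether these lines held positions or were empty was not checked. Unplaced scaffolds (517 and 394 control peaks) were set aside.

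The members, gene lists and named-peak rules were chosen with earlier results of these data known. Named were the 10 shared peaks of highest fold, the 5 with most shared sites, the 5 strongest absent from both morphant lists, the 3 peaks on each side of the boundary, the 3 windows with most shared peaks, and zinc finger genes past an adjusted p of 0.05; the other zinc finger genes were added to complete the list. Overlaps needed 1 bp. Intervals are 95% Clopper-Pearson exact intervals, and Newcombe intervals for differences (Python 3.11.15, scipy 1.17.1). Span ran to the last position in any list. The site groups, joined regions and neighbour counts were added after the values were seen.

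Counts were fitted in 1 model of 8 libraries with edgeR 4.0.16 (TMM, filterByExpr, quasi-likelihood test). On simulated data for the control ratio (22932 genes), 28% of 2-fold and 100% of 4-fold changes were recovered, with 5.88% false calls. The simulation used a common spread for all genes, changed only well-counted genes and held no replicate effect. Its rates may therefore not carry over to the real libraries. Reads outside genes made up 9.07% to 13.6%. Same-numbered libraries deviated together (correlations 0.145 to 0.455), and the number coincides with read length; it was used as a block in an alternative. Symbols covered 21939 of 33737 gene IDs, and 14582 were placed on 1 chromosome through symbols of GRCz12tu. Endothelial and RIP count tables were not used here.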

Additional observations from a re-analysis of the deposited data

How the results depend on the processing

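The 10 peak measures kept their direction in all 75 alternative values, which overlap in their data and are not independent. Against the other chromosomes, peaks per Mb (log2 ratio −1.61) gave −1.53 with the boundary at 35 Mb, −1.29 for peaks above the median fold and −1.72 without the last 100 kb, a setting chosen after seeing the data; single replicates gave −1.64 to −1.58. Log2 fold (0.20) gave 0.23 and 0.18 with the boundary at 30 and 35 Mb, 0.20 with scaffolds and 0.20 from either replicate. The length ratio (0.875) gave 0.846 above the median fold, and 0.858 to 0.893 by replicate. miCLIP sites per Mb (−1.98) gave −3.10 without the last 100 kb and −2.23 to −2.14 by replicate. Ythdf2 regions per Mb (−3.00) gave −2.58 to −2.36 by replicate. Sites in peaks differed by −27.7 points with either list, −20.4 without the last 100 kb and −23.7 to −20.5 by replicate. Region shares gave −26.4 to −22.0, recovery −24.96 to −17.5 and absence 17.5 to 24.96 by replicate. A single replicate leaves a single morphant list, so that absence there is the complement of recovery and adds no separate value. Recovery gave −8.54 with equal numbers of peaks.

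With total counts as scaling, the median over all genes moved by about 0.1 on the log2 scale (0.09 against −0.03, control label), and 930 genes were higher and 797 lower under the morphant label (3027 and 3059 with TMM), with 23 and 13 on chromosome 4. Under the control label these were 1533 and 882 (3166 and 3389) and 32 and 21. Leaving out 1 library gave 1383 to 2800 higher and 1543 to 2777 lower under the morphant label, with chromosome 4 at 30 to 50 and 31 to 63 and its zinc finger genes at 1 to 3; under the control label 906 to 3381 and 1033 to 3514, 21 to 65 and 24 to 76, and 1 to 3. The paired fit (replicate block) called 4019 and 4112 genes under the morphant label, 4151 and 4430 under the control label, and 2 chromosome 4 zinc finger genes under the morphant label, as did DESeq2 and no filter on low counts. Control METTL3 ranged from −0.61 to 0.815 with 1 library left out, and turned to −0.25 and −0.61 without control input 2 or control IP 1. The cause was not tested.

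Peak lists carry no read number per peak, 135 shared peaks leave wide intervals, and 2 lists per label cannot reach a permutation p below 0.333.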
